A study of Homo sapiens with 5 samples.

Results

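The MYC and MAX network was followed through 10 genes, taken by name from the authors' deposited table of BT474 cells: MYC, MYCN, MAX, MLX, MXD1, MXD3, MXD4, MXI1, MNT and MGA. All 10 were found, each on a single row, among 18510 gene symbols, and all were among the 13615 genes that the authors' test covered. BT474 is an established human breast cancer line of luminal type with an amplified HER2 gene. Persister cells (3 libraries) were the cells left after 9 days in 2 µM lapatinib, a kinase inhibitor of HER2 and EGFR, with drug and medium renewed every 3 days from 75% confluence. Parental cells (2 libraries) were grown over the same time without the drug, and both groups had 0.01% DMSO. Polyadenylated RNA was measured, and the table gives each group 1 value per gene in FPKM (fragments scaled to transcript length and to library size), so every level given here is the authors' value for a group, without SD or n. A drug effect that is direct, an effect of arrested growth and a trait of the cells that survive cannot be told apart in these 2 groups.

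The network is a set of basic helix-loop-helix leucine zipper proteins that bind DNA as pairs, most often at the E-box. MYC and MYCN pair with MAX and raise transcription of genes for growth, ribosomes, metabolism and division. The MXD proteins and MXI1 pair with the same MAX, bring the SIN3 corepressor with its histone deacetylases to the same sites, and are typically made when cells stop dividing and differentiate. MNT and MGA are larger MAX-binding repressors, and MLX is a MAX-like partner that links some MXD proteins and MNT to the glucose-sensing factors MondoA (MLXIP) and ChREBP (MLXIPL). In breast epithelium MYC is a well-known target of growth factor and estrogen receptor signalling.

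In persister cells 3 of the 4 antagonist transcripts (MXD1, MXD4 and MXI1) rose between 2.07-fold and 3.50-fold, while MYC rose 1.14-fold and MYCN fell 10.3-fold. A gene was called when the q-value in the authors' deposited table was under 0.05. By that rule 7 of the 10 members were higher (MYC, MAX, MXD1, MXD4, MXI1, MNT and MGA), 2 were lower (MYCN and MLX) and 1 was not called (MXD3). Of all tested genes 69.9% were called, 30.9% as higher and 39% as lower, so a call alone sets no member apart. The sizes differed more: on the log2(FPKM + 1) scale, used for all differences below, MXI1, MXD4 and MYCN differed by at least 1. A difference of that size with a call was found in 2.98% of tested genes upward and in 6.02% downward. The median difference of the members was 0.33, against -0.04 over all tested genes. Over the 10289 genes with at least 1 FPKM in both groups the median was -0.11, and relative to it the members called higher and lower kept their direction.

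**Figure D1:**
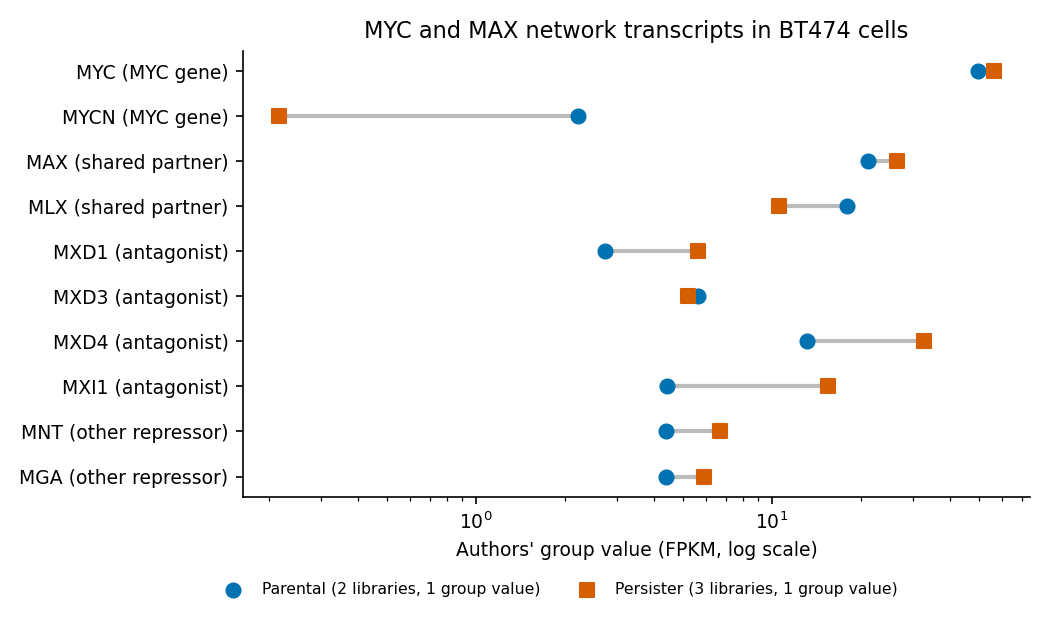
FPKM of each network gene on a log axis, with circles for parental and squares for persister cells, each the authors' single value per group with no error. MXD1, MXD4 and MXI1 lie to the right in persister cells, MYCN lies at 2.22 and 0.216 FPKM, and the symbols for MYC (49.5 and 56.3 FPKM) nearly touch.

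The MYC genes went opposite ways. MYC stood at 49.5 FPKM in the parental group against 56.3 FPKM among persisters, the highest level of the 10 members in both groups. That level lay at percentile 90.3 of the tested genes in parental cells and percentile 93.8 in persister cells. The ratio of persister to parental was 1.14 and the difference 0.18, called higher with q = 0.0171 in the authors' deposited table, a call lost at a threshold of 0.01, under which 62% of tested genes were still called. MYCN, which is best known from neural tumours, stood at 2.22 FPKM for parental cells, against 0.216 FPKM among persisters. It fell 10.3-fold (q of 0 in the authors' deposited table), and its difference of -1.40 understates this because of the pseudocount of 1. MYCN held the lowest level of the 10 in both groups and made up 4.28% of the summed MYC and MYCN level in parental and 0.383% in persister cells. The rise of MYC in FPKM was thus larger than the fall of MYCN, and their sum went from 51.8 to 56.5 FPKM. The third MYC gene, MYCL, was listed at 2.56 and 2.82 FPKM and was not called (q = 0.337 in the authors' deposited table).

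The tested genes whose pair of values lay nearest to that of MYC, by Euclidean distance over the 2 group values on the log2(FPKM + 1) scale, were ANXA6, CAPN2 and TMED4, at distances of 0.05, 0.06 and 0.08. ANXA6, an annexin, was listed at 47.9 and 55.4 FPKM, CAPN2, a calpain protease, at 51.6 and 55.7 FPKM, and TMED4 at 52.1 and 57.2 FPKM. With only 2 values per gene, this likeness shows no more than a similar level in each group.

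Both shared partners were called, in opposite directions. MAX, a partner shared by MYC, MXD and MXI1 proteins, went from 21.2 to 26.4 FPKM, a ratio of 1.25 (q = 0.0266 in the authors' deposited table). As for MYC, a threshold of 0.01 did not keep that call. MLX fell 1.70-fold, from 18.0 to 10.6 FPKM, with q = 3.35e-13 in the authors' deposited table. In GENCODE 29, 29.7% of the exon bases of MLX also belong to PSMC3IP on the opposite strand, listed at 5.63 and 1.42 FPKM. The libraries kept no strand, so reads of the 2 genes cannot be told apart over those bases. MLXIP, the MondoA partner of MLX, rose from 10.2 to 20.1 FPKM (q of 0 in the authors' deposited table). MLXIPL was listed at 1.17 and 1.41 FPKM and was not called (q = 0.0587 in the authors' deposited table). TXNIP and ARRDC4, arrestin-like genes known as targets of MondoA and MLX, both rose. TXNIP went from 40.3 to 121.6 FPKM (difference 1.57) and ARRDC4 from 6.99 to 8.50 FPKM (difference 0.25).

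Of the 4 antagonists that bring in SIN3, 3 rose (75%, against 30.9% of all tested genes) and 1 was not called. Calls in either direction covered 69.9% of all tested genes. MXI1 rose the most, 3.50-fold, from 4.43 to 15.5 FPKM. Its difference of 1.604 was at percentile 99.2 of tested genes. MXD4, a MAX dimerization protein linked to differentiation, rose 2.49-fold from 13.2 to 32.7 FPKM (difference 1.25, percentile 98.3) and was the antagonist with the highest level in both groups. MXD1, the founding member of the MXD family, rose 2.07-fold from 2.72 to 5.62 FPKM (difference 0.83, percentile 95.2). For all 3 the authors' deposited table gives q as 0.

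MXD3, the family member known for expression in dividing cells, stood at 5.63 FPKM for parental cells, against 5.19 FPKM among persisters. It was not called (q = 0.663 in the authors' deposited table). Its difference of -0.10 became 0.013 once the all-gene median was subtracted, and the sign thus rests on scaling. Of its exon bases, 22.2% also belong to PRELID1 on the opposite strand, which was listed far higher, at 89.4 and 37.6 FPKM. How much PRELID1 entered the value of MXD3 was not tested. The 6 proliferation markers were all called lower, with a median difference of -3.18, among them CCNB1 (cyclin B1, 71.1 to 5.31 FPKM) and CDK1 (51.9 to 3.72 FPKM), and their part in the levels of the network was not tested. In bulk RNA, fewer cells with a transcript and less of it per cell cannot be told apart.

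**Figure D2:**
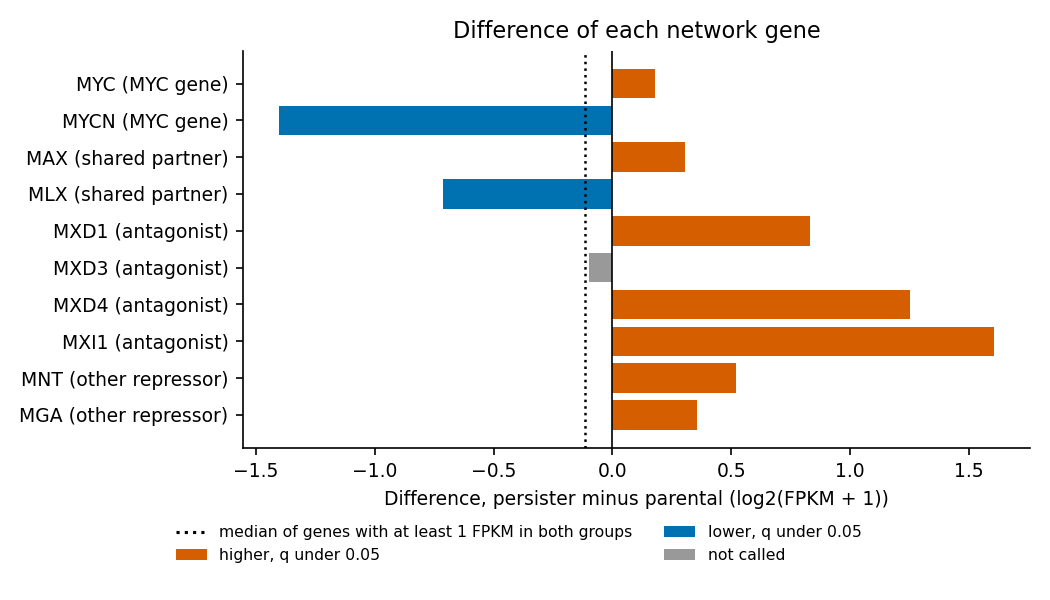
Difference of each network gene, persister minus parental, on the log2(FPKM + 1) scale, with orange bars for genes called higher, blue for lower and grey for not called. The dotted line is the median (-0.11) of genes with at least 1 FPKM in both groups; MXI1 (1.604) and MXD4 (1.25) reach farthest right and MYCN (-1.40) farthest left.

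MNT and MGA rose by less. MNT, a broadly expressed repressor that competes with MYC for MAX, rose 1.53-fold, 4.38 against 6.70 FPKM, and the authors' deposited table gives q = 4.79e-11. MGA, a scaffold of a Polycomb complex, rose 1.34-fold, 4.39 against 5.90 FPKM, and the authors' deposited table gives q = 8.51e-06. An antisense transcript in GENCODE 29 covers 21.3% of the exon bases of MNT, which leaves part of that value uncertain, while other transcripts cover 3.36% for MGA. In MXI1 and MXD4 such overlaps covered 5.06% and 1.97% of exon bases, and none was found for MYC, MYCN or MXD1.

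Set against each other, the antagonists moved from well below the MYC genes to a similar summed level. MXD1, MXD3, MXD4 and MXI1 together went from 25.9 to 59.0 FPKM, a 2.28-fold rise, while MYC and MYCN together rose 1.09-fold. The antagonist sum divided by the MYC and MYCN sum came to 0.501 for the parental group, against 1.04 among persisters, a 2.08-fold change. Leaving out each antagonist in turn gave log2 changes of this ratio from 0.89 (without MXI1) to 1.28 (without MXD3), against 1.06 with all 4. With MNT and MGA added the ratio was 0.671 and 1.27. These ratios are free of the scaling between groups, but they carry no replicate spread, and RNA levels are not protein levels. MYC and MYCN per MAX was 2.44 in parental and 2.14 in persister cells, and antagonists per MAX was 1.22 and 2.23.

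The make-up of the antagonists shifted too. MXD4 was the largest share in both groups, with 50.7% of their FPKM in parental and 55.4% in persister cells. MXI1 went from 17.1% to 26.3% and MXD3 from 21.7% to 8.79%, while MXD1 held 10.5% and 9.53%.

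**Figure D3:**
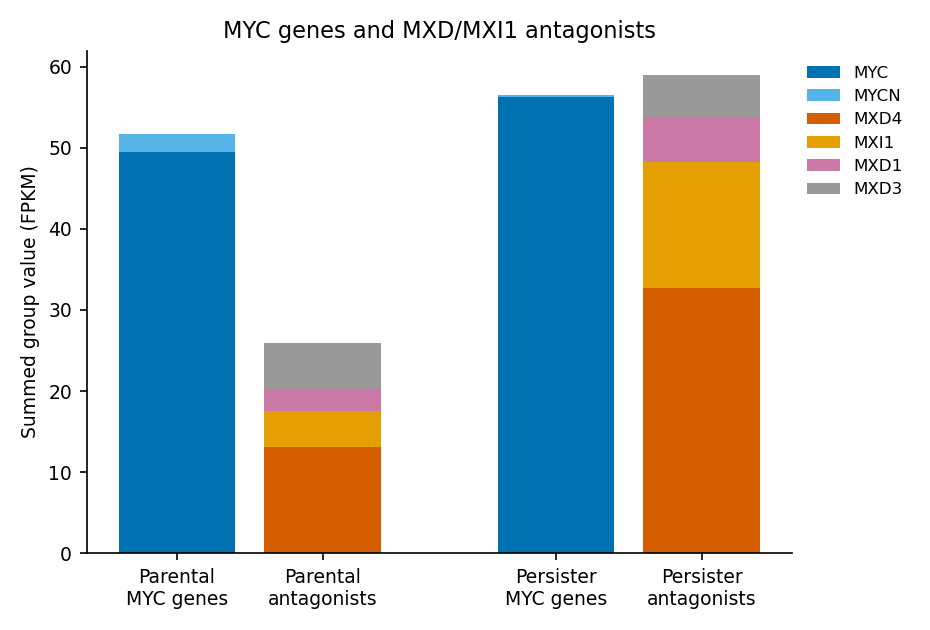
Summed FPKM of the MYC genes (MYC, MYCN) and of the antagonists (MXD4, MXI1, MXD1, MXD3) in parental and persister cells, stacked by gene, with no error since each value is a single group value. The antagonist bar goes from 25.9 to 59.0 FPKM, beside 51.8 and 56.5 FPKM for the MYC genes.

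Promoter sequences are shown for the members in which a searched motif was found, so that their values can be read beside motifs known for FOXO factors and for the network itself. RefSeq promoters (GRCh38.p14, 250 bases before to 50 after each listed start) were searched for 9 of the members, with 14 starts in all. MYC was left out of this search, so nothing can be said of these motifs in its promoter. The FOXO motif GTAAACA, searched on both strands, was present in 2 of the 14, both belonging to MXI1, which is listed with 3 starts. Of all 35116 promoters, 3.42% hold it. In the first sequence, from chr10:110209981-110210240 on the + strand, the motif in capitals is read as TGTTTAC and begins 151 bases before the start. In the second, from chr10:110225746-110226005 on the + strand, it begins 2 bases before the start. Both are written 5′ to 3′.
MXI1 start a: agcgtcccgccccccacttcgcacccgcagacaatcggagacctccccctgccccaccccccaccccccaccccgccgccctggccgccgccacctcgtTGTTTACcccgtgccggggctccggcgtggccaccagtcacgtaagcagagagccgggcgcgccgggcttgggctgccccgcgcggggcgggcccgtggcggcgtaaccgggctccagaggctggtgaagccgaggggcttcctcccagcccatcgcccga
MXI1 start b: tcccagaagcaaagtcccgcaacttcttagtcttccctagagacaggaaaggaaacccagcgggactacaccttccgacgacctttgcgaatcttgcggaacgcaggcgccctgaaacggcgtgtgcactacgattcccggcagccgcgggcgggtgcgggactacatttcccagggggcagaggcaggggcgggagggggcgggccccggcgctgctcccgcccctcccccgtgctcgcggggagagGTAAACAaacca

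The table holds 1 value for MXI1 over its 3 transcript identifiers, so the start in use in either group is unknown. The E-box CACGTG, which is its own reverse complement, was present in 3 of the 14 promoters, those of MXD4, MNT and MLX, and in 7.26% of all promoters. MXD4 and MNT rose and MLX fell, so the members with this motif did not share a direction. It began 238 bases before the start in MXD4, 193 in MNT and 50 in MLX, and stands in capitals in the 60 bases shown for each, 5′ to 3′ on the strand of the gene. They lie at chr4:2262300-2262359 on the - strand, chr17:2401221-2401280 on the - strand and chr17:42567023-42567082 on the + strand.
MXD4: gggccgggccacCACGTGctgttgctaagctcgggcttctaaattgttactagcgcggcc
MNT: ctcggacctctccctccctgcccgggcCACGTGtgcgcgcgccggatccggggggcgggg
MLX: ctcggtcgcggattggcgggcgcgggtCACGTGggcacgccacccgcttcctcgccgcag

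The E2F motif TTTCCCGC, searched on both strands, was in 0 of the 14 promoters and in 1.63% of all promoters. None of the 3 motifs was found in the promoter of MYCN. A match is only these letters in this window, and binding was not measured.

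Of 14 coactivators of the MYC proteins, 3 rose (21.4%), 4 fell (28.6%) and 7 were not called, both shares below those of all tested genes (30.9% and 39%), with a median of -0.06 that became 0.050 once the all-gene median was subtracted. The falls were ACTL6A (66.5 to 36.9 FPKM), an actin-like subunit of chromatin complexes, the helicases RUVBL2 (48.9 to 31.3 FPKM) and RUVBL1 (35.8 to 23.7 FPKM), and SMARCB1. The largest rise was that of BPTF (11.4 to 18.1 FPKM), a subunit of the NURF remodeler that MYC can recruit. TRRAP, the scaffold that carries histone acetyltransferases to MYC, was listed at 10.5 and 10.03 FPKM and was not called. SMARCB1 and TRRAP were named after their values were seen.

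The corepressor that the antagonists bring in had members that went both ways. Of 12 SIN3 and histone deacetylase genes 11 were tested, 3 rose (27.3%, against 30.9% of all tested genes), 6 fell (54.5%, against 39%) and 2 were not called, with a median of -0.23. SIN3B, one of the paired scaffolds that bind MXD proteins directly, rose from 6.40 to 16.1 FPKM (difference 1.21). SIN3A, the other scaffold, was listed at 11.8 and 12.5 FPKM without an estimate in the authors' test, and is named after its values were seen. ARID4A rose from 3.24 to 5.96 FPKM. SAP30 fell from 17.8 to 6.86 FPKM and the deacetylase HDAC2 from 27.0 to 15.1 FPKM.

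In the Polycomb complex built on MGA and MAX, 7 of 10 further subunits fell (70%, against 39% of all tested genes) and 3 rose (30%, against 30.9%), with a median of -0.38. PCGF6, the subunit that defines this complex, fell from 7.24 to 4.07 FPKM, L3MBTL2 from 16.7 to 10.3 FPKM and CBX3 from 155.5 to 102.7 FPKM. TFDP2, a partner of E2F proteins, rose from 4.95 to 9.58 FPKM. Genes that act on the stability of MYC protein were called only downward: 11 of 15 fell (73.3%, against 39% of all tested genes), 0 rose (against 30.9%) and 4 were not called, with a median of -0.38. They included AURKA (140.0 to 15.6 FPKM), a mitotic kinase that also shields MYCN from degradation, and CIP2A (5.60 to 1.16 FPKM), an inhibitor of the PP2A phosphatase. On the opposing side, PPP2R5A, a subunit of that phosphatase, fell from 22.9 to 12.02 FPKM and the ubiquitin ligase subunit SKP2 from 9.60 to 5.98 FPKM. AURKA is also a gene of dividing cells. The 6 proliferation markers were all called lower, and whether the fall of AURKA belongs with theirs was not tested.

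Genes known as activated by MYC were mostly lower, while MYC itself was called higher at 1.14-fold, a call lost with q under 0.01. Over 4 lists, 48 of 56 tested genes fell (85.7%, against 39% of all tested genes) and 4 rose (7.14%, against 30.9%). The other 4 were not called, and the median was -0.70. The part of MYC, of its antagonists or of slower division in these falls was not tested. Summed FPKM over all rows was also lower, 333324 in parental and 260213 in persister cells. All 5 epithelial markers fell too (100%, against 39% of all tested genes), with a median of -0.55. Of 3 luminal markers, 2 rose (66.7%, against 30.9%) and 1 fell (33.3%, against 39%). Of 16 ribosome assembly genes 14 fell (87.5%) and 0 rose (median -0.53). The largest falls among those called were MRTO4 (18.5 to 9.17 FPKM), DKC1 (50.7 to 26.0 FPKM), NOP2 (36.5 to 19.8 FPKM) and NOP16 (37.8 to 21.3 FPKM). NOP56 was listed at 684 and 262 FPKM yet not called (q = 0.552 in the authors' deposited table), and is named after its values were seen.

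Of 17 metabolic genes 14 fell (82.4%, against 39% of all tested genes) and 1 rose (5.88%, against 30.9%), with a median of -0.81. The glutamine transporter SLC1A5 fell from 162.8 to 48.1 FPKM, ODC1, the first enzyme of polyamine synthesis, from 44.6 to 15.7 FPKM, LDHA from 70.04 to 26.2 FPKM and HK2 from 15.9 to 5.91 FPKM. The one that rose was IMPDH2, a guanine nucleotide enzyme (57.5 to 73.3 FPKM), and the pyrimidine enzyme CAD, a classic E-box target, was not called at 13.5 and 13.6 FPKM. IMPDH2 and CAD were named after their values were seen.

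Of 12 cell cycle genes 9 fell (75%, against 39% of all tested genes) and 3 rose (25%, near the 30.9% of all tested genes). Their median was -0.95. CKS2, a subunit of cyclin-dependent kinases, fell from 98.6 to 13.7 FPKM, E2F1 from 9.12 to 1.07 FPKM, the phosphatase CDC25A from 6.11 to 0.735 FPKM and the replication licensing factor MCM5 from 35.7 to 9.08 FPKM. The 3 that rose were ID2 (101.4 to 117.4 FPKM), TERT (0.153 to 0.277 FPKM) and CCND2 (0.0137 to 0.0724 FPKM), named after their values were seen, and TERT and CCND2 stayed under 1 FPKM in both groups. All 11 tested translation and chaperone genes fell (100%, against 39% of all tested genes), with a median of -0.68. Among them were the chaperonin HSPD1 (184.4 to 74.8 FPKM), the cap-binding factor EIF4E (17.2 to 7.03 FPKM), the helicase EIF4A1 (224.6 to 117.6 FPKM) and NME1 (761.9 to 438.6 FPKM). CKS2, HSPD1, EIF4A1, NME1 and LDHA have near-identical copies elsewhere in the genome that could share reads. No search for such copies was made, so other listed genes may have them too.

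Of 13 tested genes known as repressed by MYC, 6 rose (46.2%, against 30.9% of all tested genes), 5 fell (38.5%, against 39%) and 2 were not called, with a median of 0.07. THBS1, a matrix glycoprotein that inhibits blood vessel growth, rose from 19.4 to 50.8 FPKM, CAV1 (caveolin) from 0.0599 to 1.34 FPKM and the CDK inhibitor CDKN1C from 0.501 to 1.53 FPKM. GADD45A, a stress gene, fell from 17.0 to 9.69 FPKM. The classic repressed target CDKN1A, the CDK inhibitor p21, was not called at 21.3 and 21.9 FPKM and is named after its values were seen.

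**Figure D4:**
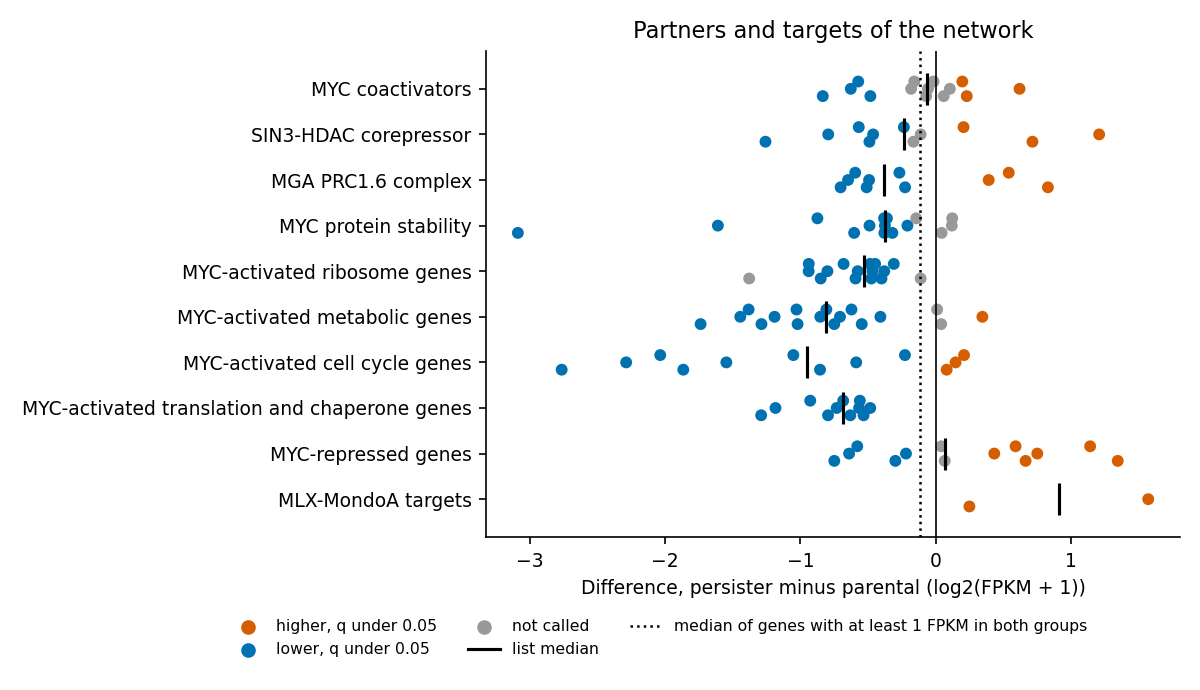
Difference, persister minus parental on the log2(FPKM + 1) scale, of each tested gene in the lists of network partners and targets, coloured by call (orange higher, blue lower, grey not called), with a black bar at each list median and a dotted line at the median of genes with at least 1 FPKM in both groups. The 4 lists of genes activated by MYC have medians from -0.95 to -0.53, and the genes repressed by MYC lie on both sides of 0 with a median of 0.07.

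The labelled cell type was checked by its markers, which were high for epithelial genes, while ERBB2 had no usable value. The 5 epithelial markers stood at 142.8 FPKM or more in parental and 89.6 FPKM or more in persister cells, and all 5 were called lower. The luminal factors GATA3 (14.1 to 43.3 FPKM) and ESR1 (12.4 to 18.2 FPKM) rose and FOXA1 (107.2 to 92.5 FPKM) fell. ERBB2, the amplified gene that defines the line, was listed at 0 in both groups. That was not taken as its level, and no change can be read for it. The 10 immune, endothelial and fibroblast markers summed to 0.766 and 0.0717 FPKM. The highest was CDH5, at 0.592 and 0.0441 FPKM, and 2 of the 10 were listed at 0 in 1 group.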

How the data were processed

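RNA from equal numbers of BT474 cells per replicate, with integrity numbers above 9.3, was made into libraries without strand and spread over 5 HiSeq lanes, per the labels' protocols. Build hg18, Cuffdiff 2.0.2, Cufflinks, TopHat2 2.0.6 and CASAVA 1.8 are named in the submitters' processing notes; how libraries were scaled, and all settings, are not given in the sources used here. For each group and gene, the authors deposited 1 FPKM value, combining 2 parental and 3 persister libraries, per the file headers. A deposited q-value gives the authors' own test of the 2 groups, adjusted in a way no source states. It is 0 in 2712 of 18803 rows, and the smallest value above 0 was 1.2e-15.

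No counts or values per library are in the table, so depth is unknown, no interval was computed, and the limma test meant for values per library was not run. A gene was tested if its q-value was below 1 and called if it was under 0.05. Both fold and q were 1 in 145 rows although the FPKM values differed by more than 0.6%; these, SIN3A among them, have no estimate. Of symbols on several rows (271), the row with the highest mean was used, which touched no member. Differences are log2(FPKM + 1), persister minus parental, which understates changes of low genes. Exon overlaps came from the basic GENCODE 29 annotation and promoters from RefSeq; the authors' build differs, so neither was joined by position. CIP2A was found under an older symbol by its transcript identifiers, and HSPE1 was not analysed here.

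The members and lists were chosen with earlier results of these data known. Beside the members, up to 4 called genes with the largest difference were named per list (2 by mean level where fewer than 2 were called, all of a list of 3 or fewer), and the 3 genes nearest to MYC. Calculations used Python 3.11.15, pandas 2.3.3 and numpy 2.4.6, and were tested on simulated data.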

Additional observations from a re-analysis of the deposited data

How the results depend on the processing

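Alternatives were a q-value threshold of 0.01, a minimum difference of 1, an FPKM minimum of 1, pseudocounts of 0.1 and 0.01, differences relative to the all-gene median, rows of a symbol summed, and other sets of antagonists. Calls rest on the deposited q-value, so pseudocounts cannot change them, and call thresholds cannot change a median. Nor could summing rows or the FPKM minimum change the member counts. No member was on several rows, and each had at least 1 FPKM in parental cells. Members called were 7 higher and 2 lower in all but 2 settings: 5 higher and 2 lower with q under 0.01 (MYC and MAX lost), and 2 higher and 1 lower with a difference of at least 1. The log2 change of antagonists per MYC genes was 1.28 without MXD3, against 1.06. The MYCN difference was -2.87 and -3.30 with pseudocounts of 0.1 and 0.01. Relative to the all-gene median, MXD3 turned from -0.10 to 0.013 and the coactivator median from -0.06 to 0.050.

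With a difference of at least 1, fewer genes can be called by construction: 2.98% of all tested genes were called higher and 6.02% lower. The counts higher and lower were then 0 and 0 for coactivators, 1 and 1 for the SIN3 corepressor and 0 and 0 for the MGA complex. They were 0 higher for the other network genes (MYCL, MLXIP, MLXIPL), 2 lower for MYC stability and 1 higher for MLX targets. Of all genes activated by MYC, 15 were lower and 0 higher: 0 lower for ribosome genes, 7 lower and 0 higher for metabolic genes, 6 lower and 0 higher for cell cycle genes and 2 lower for translation and chaperone genes. Genes repressed by MYC gave 2 higher and 0 lower, and 3 lower with q under 0.01, where 62% of all tested genes were called. With an FPKM minimum of 1, genes activated by MYC called higher were 2, of which 1 was a cell cycle gene, since TERT and CCND2 were removed.

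No paired analysis was possible because the table holds 1 value per group, and leaving out each replicate in turn was not run for the same reason. The table gives no depth, so low values such as MYCN in persister cells have an unknown counting error. The authors' q-values rest on these libraries alone, and what spread their test allowed for is not stated.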
